A study of Mus musculus with 5 samples.

Results

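The genes described here are the ribosome biogenesis and nucleolar genes of RAW264.7 cells, which are macrophage-like cells of mouse origin kept as a line. They were chosen by symbol from the expression table: symbols that start with Nop, Utp, Rrp, Nol or Imp and a digit, or with Polr1 and a letter, together with Fbl, Ncl, Npm1, Dkc1, Bop1, Pes1, Wdr12, Rrs1, Nat10, Gnl3, Heatr1 and Wdr43. The rule matched 53 symbols, of which 52 had values, out of 16003 genes with values; Nol4 matched and had none. The CD137 cells carried Renilla luciferase and mouse Cd137, the co-stimulatory receptor gene Tnfrsf9, and the control cells carried Renilla luciferase alone, so both groups express the luciferase. The series has 3 CD137 samples and 2 control samples, and the values come from CD137 replicates 2 and 3 and control replicate 2; the other 2 samples were not analysed here. The labels do not say whether each library is a separate culture or clone, or how Cd137 was introduced. The control is a single library, so it carries no replicate error, and the spread in every test comes from the CD137 libraries.

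A cell makes ribosomes in the nucleolus. RNA polymerase I transcribes a long precursor RNA, small nucleolar ribonucleoproteins (snoRNPs) modify and guide it, and the small subunit processome and a series of large subunit assembly factors fold, cut and package it with ribosomal proteins. The activity is high in growing cells, and Myc is a known transcriptional activator of many genes of the pathway.

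Levels are in FPKM, which scales the fragments of a gene to its transcript length and to the library total, so that genes can be compared. A gene counted as expressed where any library reached 1 FPKM, which 51 of the 52 members (98.1 percent) and 10720 of all genes (67.0 percent) were. Differences are log2 fold changes of FPKM + 1, CD137 over control, from limma fitted across the 10720 expressed genes, and a gene is said to have risen or fallen where its Benjamini-Hochberg adjusted p was under 0.05. In a limma fit without the expression filter no gene passed, and 0 of 52 members were called. At an unadjusted p under 0.05 in that fit 17 members were lower and 8 higher, and 5281 of all 16003 genes differed. The smallest adjusted p of the members was 0.0802 in that limma fit. Calls below come from the filtered fit, which was chosen because earlier results of these data showed no call in a fit of all genes. The filtered fit assumes that the control varies as little as the CD137 libraries do. The p-values rest on how far the CD137 libraries differ from each other, and that spread may be technical. In bulk RNA, fewer cells that express a gene and less RNA per cell cannot be told apart.

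Tnfrsf9 was at 364 and 370 FPKM in CD137 replicates 2 and 3, against 5.06 FPKM in the control, which matches the labels. Of 10 macrophage markers 9 were at 1 FPKM or more, all but Mrc1, and their sum was 1964 and 2012 FPKM in the CD137 libraries, against 3122 FPKM in the control. Lyz2 (646 and 669 FPKM in CD137 replicates 2 and 3, against 1693 FPKM in the control) carries most of this gap, and the 9 markers did not go one way: both CD137 libraries were above the control for 5 (Fcgr1, Itgam, Ptprc, Adgre1 and Spi1) and below it for 4 (Lyz2, Csf1r, Cd14 and Cd68). Fcgr1 was at 89.9 and 95.2 FPKM in the CD137 libraries, against 45.2 FPKM in the control. T cell, B cell and fibroblast markers were under 1 FPKM or without a value. Of the endothelial markers Pecam1 was at 1.54 and 1.71 FPKM in CD137 replicates 2 and 3, against 1.45 FPKM in the control. Cdh5 and Kdr were under 1 FPKM. The summed epithelial markers Epcam, Krt8 and Krt18 were at 5.63 FPKM in CD137 replicate 2, 1.11 FPKM in CD137 replicate 3 and 0.60 FPKM in the control. Between the CD137 libraries the expressed members described below differed by up to 14.4 percent of their mean (Utp3). The part of the epithelial marker difference in the members was not tested.

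Most members were slightly lower in CD137 cells. Of the 51 expressed members 14 fell (27.5 percent), 6 rose (11.8 percent) and 31 did not pass, where 18.2 percent of all expressed genes fell and 24.4 percent rose. The median log2 fold change was -0.07 over the members and 0.03 over all expressed genes, and 74.5 percent of members were on the negative side, against 45.6 percent of all expressed genes. In 32 members both CD137 libraries lay below the control (62.7 percent, background 40.2 percent), in 12 both lay above it (background 49 percent), and in 7 the control lay between them. The sizes were small: 7 members (13.7 percent) differed by at least 1.25-fold on this scale, against 27.6 percent of all expressed genes, and Nol4l alone passed 1.5-fold. These shares describe the set; no test was made of the set as a whole.

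The levels span a wide range. Npm1, which encodes the histone chaperone nucleophosmin, was by far the most abundant, at 1828 and 1782 FPKM in CD137 replicates 2 and 3, against 1834 FPKM in the control. Nucleolin (Ncl) came next, followed by Fbl, Nop56, Polr1d and Nop58, and these 6 were the members at 100 FPKM or more in the control. In the control library the median level was 34.0 FPKM over the expressed members and 14.5 FPKM over all expressed genes. At the low end were Polr1e, Nol4l and Utp14b, and Nol3 was listed at 0.06 FPKM in CD137 replicate 2 and at 0 in CD137 replicate 3 and the control.

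**Figure D1:**
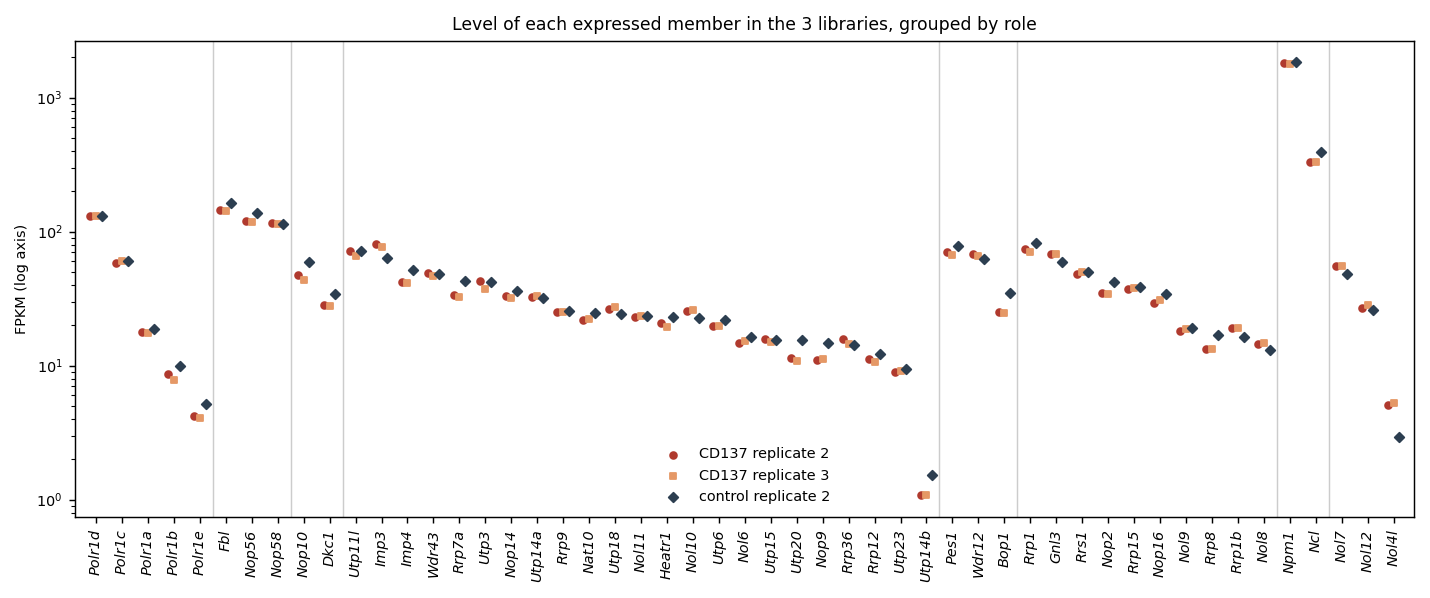
FPKM (log axis) of each of the 51 expressed members in CD137 replicate 2 (circles), CD137 replicate 3 (squares) and control replicate 2 (diamonds), in blocks by role: RNA polymerase I, box C/D snoRNP, box H/ACA snoRNP, small subunit processome and maturation, PeBoW, other large subunit assembly, abundant nucleolar proteins, and remaining symbols. The library values of a gene lie close together beside the spread between genes, from Utp14b at 1.09, 1.08 and 1.53 FPKM to Npm1 at 1828, 1782 and 1834 FPKM.

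Whole reads behind the FPKM could be solved for in 45 of the 52 members, from the authors' Poisson p-values. They ranged from 71 reads for Utp14b in each CD137 library to 3357 reads for Fbl in the control. All 17 called members with solved reads had a ratio of reads, CD137 over control and corrected for depth, whose exact 95 percent interval left out 1; so did 14 of the 28 uncalled ones. Those intervals cover counting error only and compare libraries, not conditions. The reads lie behind the same FPKM values that gave the calls, so they are no separate support for them. The share of all expressed genes whose interval left out 1 was not worked out. In the authors' deposited table, 19 members had an adjusted Poisson p under 0.05 and a lower value in both CD137 libraries (background 21 percent of 10716 expressed genes) and 7 had a higher one (background 26 percent). Between the CD137 libraries the authors' deposited table gave such a p to 2 members, Npm1 and Utp3 (background 1.91 percent).

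RNA polymerase I is the enzyme that transcribes the ribosomal RNA precursor. None of its 5 Polr1 members passed the test in limma, where 18.2 percent of all expressed genes fell and 24.4 percent rose. At an unadjusted p under 0.05 in limma 2 of them differed (40 percent, background 52.3 percent). All 5 log2 fold changes were negative (background 45.6 percent). Polr1e, a subunit of the heterodimer that aids initiation, was at 4.23 and 4.09 FPKM in CD137 replicates 2 and 3, against 5.15 FPKM in the control (log2 fold change -0.25 ± 0.08 SE, adjusted p = 0.0629 in limma). Polr1b, the second-largest subunit, was at 8.66 and 7.85 FPKM in the CD137 libraries, against 9.96 FPKM in the control (-0.25 ± 0.08 SE, adjusted p = 0.065 in limma). Both CD137 libraries were below the control for these genes, but the gap did not pass at this spread; both passed with median-ratio scaling and in limma-voom on solved reads. The largest subunit gene Polr1a was at 17.8 and 17.4 FPKM in the CD137 libraries, against 18.7 FPKM in the control. Polr1c and Polr1d encode subunits shared with RNA polymerase III. They were at 58.4 and 60.5 FPKM (Polr1c) and at 131 FPKM in both libraries (Polr1d) in CD137 cells, against 60.1 and 131 FPKM in the control. The shared subunits thus had values near the control, and the interval of the solved reads for Polr1c ran from 0.927 to 1.06 of the control.

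Box C/D snoRNPs methylate ribosomal RNA on the ribose. Of their 3 core protein genes in the set, 2 fell (66.7 percent, background 18.2 percent) and Nop58 did not pass. Fbl, the fibrillarin gene that encodes the methyltransferase (gene ID 14113, chromosome 7 from 28169748 to 28179269 in mm10), was at 144 and 143 FPKM in the CD137 libraries, against 165 FPKM in the control. The mean of 143 ± 1.22 FPKM (SD, n = 2) was 87.1 percent of the control (log2 fold change -0.20 ± 0.04 SE, adjusted p = 0.0119 in limma). Nop56 was at 120 and 118 FPKM in the CD137 libraries, against 139 FPKM in the control (-0.22 ± 0.04 SE, adjusted p = 0.00951 in limma). Its paralog Nop58 was at 115 and 113 FPKM in the CD137 libraries, against 114 FPKM in the control, so the control lay between the CD137 values. The ratio of Nop56 to Nop58 was 1.04 and 1.05 in the CD137 libraries, against 1.22 in the control.

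Box H/ACA snoRNPs convert uridine to pseudouridine, and their Dkc1 and Nop10 subunits also belong to telomerase. Both genes fell. Nop10, which encodes a very small subunit (gene ID 66181, chromosome 2 from 112261926 to 112262898), was at 47.4 and 43.8 FPKM in the CD137 libraries, against 59.8 FPKM in the control (log2 fold change -0.39 ± 0.06 SE, adjusted p = 0.00826 in limma). Dkc1, the dyskerin gene for the pseudouridine synthase, was at 28.2 and 28.1 FPKM in the CD137 libraries, against 34.2 FPKM in the control (-0.27 ± 0.05 SE, adjusted p = 0.0103 in limma). Both CD137 libraries lay below the control for both genes, as they did for 40.2 percent of all expressed genes. Further core proteins and assembly factors of both kinds of snoRNP were read from a separate list. Among its 15 expressed genes, 7 fell (46.7 percent, background 18.2 percent) and 0 rose, with a median log2 fold change of -0.18; at an unadjusted p under 0.05 in limma, 9 of the 15 (60 percent) differed, against 52.3 percent of all expressed genes. Ruvbl2 and Ruvbl1, the ATPases used in snoRNP assembly and in chromatin remodelling, were at 63.3 and 68.8 percent of the control, the snoRNP chaperone gene Nolc1 was at 79.2 percent, and Nhp2, a core H/ACA protein, was at 83.3 percent.

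The group assigned to the small subunit processome and to the factors that mature the small subunit has 23 members. Of these 4 fell (17.4 percent), 2 rose (8.7 percent) and 17 did not pass, and the median log2 fold change was -0.07. The share that fell is close to the 18.2 percent of all expressed genes, and 24.4 percent of those rose. Utp20, a very large scaffold protein (gene ID 70683, chromosome 10 from 88746607 to 88826814), was at 11.5 and 10.9 FPKM in the CD137 libraries, against 15.5 FPKM in the control. It fell to 72.2 percent of the control (-0.44 ± 0.06 SE, adjusted p = 0.00654 in limma). Nop9, an RNA-binding factor known from yeast to act on the small subunit precursor, was at 11.1 and 11.3 FPKM in the CD137 libraries, against 14.6 FPKM in the control (-0.36 ± 0.06 SE, adjusted p = 0.00929 in limma). Its exons overlap those of Cideb on the other strand over 860 bases in GENCODE vM21, and Cideb was at 0.05 and 0.10 FPKM in the CD137 libraries and listed at 0 in the control. Rrp7a, whose yeast counterpart acts on the early small subunit precursor, was at 33.7 and 32.4 FPKM in the CD137 libraries, against 42.5 FPKM in the control (-0.35 ± 0.05 SE, adjusted p = 0.00605 in limma). Its overlap with Serhl on the other strand spans 598 bases, and Serhl was at 22.4 and 23.8 FPKM in the CD137 libraries, against 18.7 FPKM in the control. Since the sources do not say whether reads were counted by strand, reads of such pairs cannot be told apart.

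Imp3 and Imp4 encode partners that bind the processome together with Mphosph10, and they moved in opposite directions. Imp3 (gene ID 102462, chromosome 9 from 56937500 to 56938398) was at 80.3 and 76.9 FPKM in the CD137 libraries, against 63.3 FPKM in the control. It rose to 124 percent of the control (0.31 ± 0.05 SE, adjusted p = 0.00694 in limma). Imp4 (gene ID 27993, chromosome 1 from 34439829 to 34445747) was at 41.9 and 41.2 FPKM in the CD137 libraries, against 51.3 FPKM in the control, and fell to 80.9 percent (-0.30 ± 0.04 SE, adjusted p = 0.0067 in limma). In both CD137 libraries the Imp4 level was 0.522 and 0.535 of the Imp3 level, against 0.811 in the control. Mphosph10 was at 36.7 and 35.4 FPKM in the CD137 libraries, against 35.8 FPKM in the control. Imp4 shares 209 exonic bases with the antisense gene Gm28306, which has no value in the table.

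Myc (gene ID 17869) was at 6.57 and 6.49 FPKM in the CD137 libraries, against 2.56 FPKM in the control, from 277, 275 and 110 solved reads. It rose by 1.08 ± 0.08 (SE) on the log2(FPKM + 1) scale (adjusted p = 0.00148 in limma). In the same libraries 14 of the 51 expressed members fell (27.5 percent, background 18.2 percent), 6 rose (11.8 percent, background 24.4 percent) and 31 did not pass. A link between the Myc level and these calls was not tested. Ncl, Nop56, Fbl, Bop1 and Dkc1 were among those that fell, Gnl3 rose, and Npm1 and Nop58 did not pass. Myc binds the E-box CACGTG, so the promoters of the members, from 250 bases before to 50 bases after the annotated start in RefSeq for GRCm38.p6, were searched for it; the word reads the same on both strands. Of the 42 members with a promoter sequence 9 (21.4 percent) held the word, against 12.2 percent of 8687 expressed genes and 8.09 percent of all 27025 genes with a promoter. It was present in 5 of 12 fallen, 0 of 6 risen and 4 of 24 uncalled members. How often all fallen or all risen expressed genes hold the word was not counted, so this split has no background. The fallen members with it were Imp4, Nop2, Pes1, Rrp7a and Utp20, and the others were Nol11, Utp14b, Utp18 and Wdr43. The windows of Ncl, Nop56, Dkc1, Nop58 and Gnl3 held none, and Bop1, Fbl and Npm1 had no promoter sequence. The ETS core CCGGAAG, on either strand, was in 11 of the 42 (26.2 percent), against 22.3 percent of expressed genes. By call, the ETS core was in 1 of 12 fallen, 2 of 6 risen and 8 of 24 uncalled members. A match is a description of the letters and says nothing of binding in these cells.

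The partners Imp4 and Imp3 are shown because they moved in opposite directions, with Nop2 and Utp20 as other fallen members that hold the word. Each promoter is given 5′ to 3′ on the strand of its gene, with the E-box in capitals. Imp4 lies at chr1:34439579-34439878 (plus), Imp3 at chr9:56937250-56937549 (plus), Nop2 at chr6:125131633-125131932 (plus) and Utp20 at chr10:88826765-88827064 (minus).
Imp4: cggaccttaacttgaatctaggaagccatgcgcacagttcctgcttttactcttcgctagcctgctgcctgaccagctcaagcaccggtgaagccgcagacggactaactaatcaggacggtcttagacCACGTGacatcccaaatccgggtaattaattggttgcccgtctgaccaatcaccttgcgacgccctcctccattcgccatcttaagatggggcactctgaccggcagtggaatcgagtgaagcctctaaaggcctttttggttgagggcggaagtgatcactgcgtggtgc
Imp3: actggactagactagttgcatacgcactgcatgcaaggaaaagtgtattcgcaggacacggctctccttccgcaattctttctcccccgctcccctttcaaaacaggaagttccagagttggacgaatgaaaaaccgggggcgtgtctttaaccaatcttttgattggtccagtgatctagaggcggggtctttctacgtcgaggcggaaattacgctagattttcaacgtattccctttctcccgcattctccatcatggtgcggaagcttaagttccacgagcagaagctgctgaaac
Nop2: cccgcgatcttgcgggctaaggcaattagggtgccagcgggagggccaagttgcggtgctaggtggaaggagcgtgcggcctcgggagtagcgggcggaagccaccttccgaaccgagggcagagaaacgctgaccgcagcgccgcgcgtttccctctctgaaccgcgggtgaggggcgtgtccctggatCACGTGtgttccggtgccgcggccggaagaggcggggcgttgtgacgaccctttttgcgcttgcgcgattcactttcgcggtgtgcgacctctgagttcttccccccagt
Utp20: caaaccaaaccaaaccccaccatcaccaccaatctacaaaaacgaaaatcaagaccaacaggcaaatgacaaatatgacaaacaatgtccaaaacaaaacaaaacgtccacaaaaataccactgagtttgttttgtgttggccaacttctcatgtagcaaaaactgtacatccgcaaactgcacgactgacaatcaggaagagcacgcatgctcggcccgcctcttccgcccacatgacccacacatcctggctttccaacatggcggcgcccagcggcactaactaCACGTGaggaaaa
Counted from 0 at the annotated start, the word begins at position -121 in Imp4, -60 in Nop2 and 37 in Utp20, and the Imp3 window holds none. The choice of these 4 was made after their values were seen.

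Nol10, also a processome factor, rose, at 25.7 and 26.1 FPKM in the CD137 libraries, against 22.7 FPKM in the control (0.18 ± 0.05 SE, adjusted p = 0.0385 in limma); it did not pass with median-ratio scaling. Heatr1 and Nat10 were lower in both CD137 libraries without passing; both passed with median-ratio scaling (adjusted p = 0.0477 and 0.0371 in limma) and in limma-voom on solved reads (adjusted p = 0.0193 and 0.0335), and Nat10 also with a mean of at least 5 FPKM (adjusted p = 0.0495 in limma). Heatr1, a scaffold needed for transcription and processing, was at 20.8 and 19.4 FPKM in the CD137 libraries, against 22.9 FPKM in the control (-0.18 ± 0.06 SE, adjusted p = 0.0709 in limma). Nat10, the RNA cytidine acetyltransferase, was at 21.9 and 22.1 FPKM in the CD137 libraries, against 24.6 FPKM in the control (-0.16 ± 0.05 SE, adjusted p = 0.0596 in limma). Wdr43 was at 49.2 and 46.7 FPKM in the CD137 libraries, against 48.2 FPKM in the control, which lay between them. The remaining uncalled processome members were Rrp9, Rrp12, Rrp36, Nol6, Nol11, Nop14, Utp3, Utp6, Utp11l, Utp14a, Utp14b, Utp15, Utp18 and Utp23, with log2 fold changes from -0.28 (Utp14b) to 0.14 (Utp18). Utp14b is a retrotransposed copy of Utp14a, and reads can be assigned to either; it was at 1.09 and 1.08 FPKM in the CD137 libraries, against 1.53 FPKM in the control, while Utp14a was at 32.6 and 33.1 FPKM in the CD137 libraries, against 31.8 FPKM in the control. Utp14b also shares 206 exonic bases with Acsl3 on the same strand. Utp3 had the widest gap between the CD137 libraries relative to its mean, 14.4 percent, at 43.1 and 37.3 FPKM, against 42.1 FPKM in the control.

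**Figure D2:**
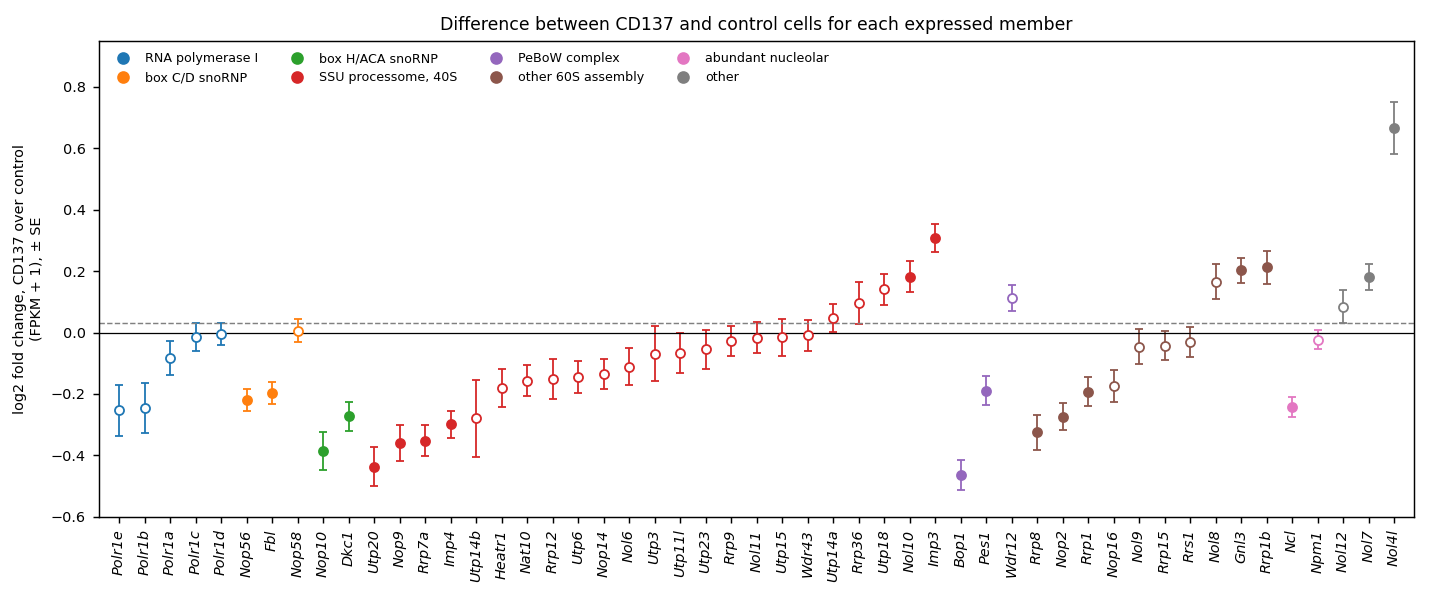
Log2 fold change, CD137 over control, on the scale of log2(FPKM + 1), with its SE, for the 51 expressed members, sorted within each role; filled points passed the adjusted threshold and open points did not. The dashed line is the median of all expressed genes, 0.03; the values run from -0.46 for Bop1 to 0.66 for Nol4l.

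The PeBoW complex, formed by Pes1, Bop1 and Wdr12, is needed to process the precursor of the large subunit RNA. Of its 3 genes 2 fell (66.7 percent, background 18.2 percent). Bop1 (gene ID 12181, chromosome 15 from 76452996 to 76477269) had the largest decrease of all members: it was at 25.1 and 24.6 FPKM in the CD137 libraries, against 34.65 FPKM in the control. The mean of 24.8 ± 0.382 FPKM (SD, n = 2) was 71.7 percent of the control (log2 fold change -0.46 ± 0.05 SE, adjusted p = 0.00287 in limma). The solved reads gave a ratio of 0.717, with a counting interval from 0.671 to 0.766. Pes1 fell less, to 69.9 and 66.7 FPKM in the CD137 libraries, against 78.0 FPKM in the control (-0.19 ± 0.05 SE, adjusted p = 0.0302 in limma). Wdr12 lay above the control in both CD137 libraries, at 67.9 and 66.3 FPKM, against 62.1 FPKM in the control, but did not pass (0.11 ± 0.04 SE, adjusted p = 0.0894 in limma). The ratio of Bop1 to Wdr12 was 0.370 in both CD137 libraries, against 0.558 in the control.

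**Figure D3:**
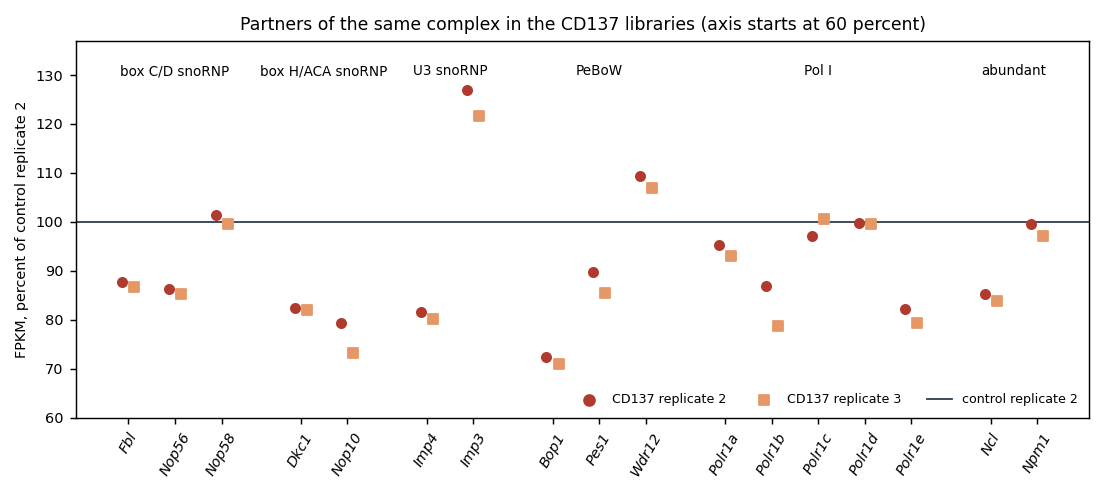
FPKM of each CD137 library as a percentage of control replicate 2 for members of the same complex and for the abundant pair Ncl and Npm1 (the vertical axis starts at 60 percent): circles are CD137 replicate 2, squares CD137 replicate 3 and the line the control. Imp3 and Wdr12 lie above the line while their partners Imp4, Bop1 and Pes1 lie below it, and Nop58 lies on it while Fbl and Nop56 lie below.

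Of the 10 other large subunit members 3 fell (30 percent, background 18.2 percent), 2 rose (20 percent, background 24.4 percent) and 5 did not pass. Rrp8, a methyltransferase of the large subunit RNA also known as nucleomethylin, was at 13.25 and 13.2 FPKM in the CD137 libraries, against 16.8 FPKM in the control (-0.33 ± 0.06 SE, adjusted p = 0.0105 in limma). Its exons overlap Ilk on the other strand over 319 bases, and Ilk was at 43.9 and 45.0 FPKM in the CD137 libraries, against 41.2 FPKM in the control. Nop2, an RNA cytosine methyltransferase long known as a proliferation antigen, was at 34.6 and 34.4 FPKM in the CD137 libraries, against 41.95 FPKM in the control (-0.27 ± 0.04 SE, adjusted p = 0.00908 in limma). The paralogs Rrp1 and Rrp1b went apart. Rrp1 was at 73.8 and 70.6 FPKM in the CD137 libraries, against 82.6 FPKM in the control (-0.19 ± 0.05 SE, adjusted p = 0.0265 in limma), and Rrp1b was at 19.2 and 19.0 FPKM, against 16.3 FPKM in the control (0.21 ± 0.05 SE, adjusted p = 0.0303 in limma). Gnl3, the GTPase nucleostemin, rose, with 68.5 and 68.6 FPKM in the CD137 libraries, against 59.4 FPKM in the control (0.20 ± 0.04 SE, adjusted p = 0.0154 in limma). Nop16, Nol8, Nol9, Rrp15 and Rrs1 did not pass, with log2 fold changes from -0.17 (Nop16) to 0.17 (Nol8). Rrs1, needed to bring the small RNA of the large subunit into the particle, was at 48.1 and 50.3 FPKM in the CD137 libraries, against 50.3 FPKM in the control.

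Ncl and Npm1 had the highest transcript levels of the set, and their proteins, nucleolin and nucleophosmin, bind RNA and histones. Ncl (gene ID 17975, chromosome 1 from 86344719 to 86359455) was at 334 and 328 FPKM in the CD137 libraries, against 392 FPKM in the control, and fell to 84.5 percent (-0.24 ± 0.03 SE, adjusted p = 0.00548 in limma). Npm1 did not pass (-0.02 ± 0.03 SE, adjusted p = 0.58 in limma); it has many processed copies in the genome, so the assignment of its reads is uncertain. Ncl was at 0.183 and 0.184 of the Npm1 level in the CD137 libraries, against 0.214 in the control.

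The 4 remaining symbols were not assigned to any of the groups above, and how closely each is tied to ribosome assembly was not examined. Nol7 rose, at 55.1 and 55.3 FPKM in the CD137 libraries, against 48.5 FPKM in the control (0.18 ± 0.04 SE, adjusted p = 0.0239 in limma). Nol4l, a little-studied gene, had the largest increase of the set, at 5.10 and 5.30 FPKM in the CD137 libraries, against 2.91 FPKM in the control (0.66 ± 0.08 SE, adjusted p = 0.00457 in limma). Its solved reads gave a ratio of 1.84, with a counting interval from 1.62 to 2.10. Nol12 was at 27.0 and 28.4 FPKM in the CD137 libraries, against 26.1 FPKM in the control, and did not pass. Nol3, the apoptosis repressor with a CARD domain, was not expressed.

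Other genes of the pathway, outside the symbol rule, were read from lists. In the large subunit list, which has 49 expressed genes, 11 fell (22.4 percent) and 3 rose (6.12 percent), with a median log2 fold change of -0.07. The helicase gene Ddx18 was at 45.4 and 46.9 FPKM in the CD137 libraries, against 66.5 FPKM in the control, and Ftsj3, Noc2l and Pa2g4 fell to 79.3, 80.5 and 83.3 percent of the control. In the small subunit list 7 of 37 expressed genes fell and 4 rose, with a median of -0.01. Wdr46 and Lyar fell to 70.2 and 71.3 percent of the control, whereas Ngdn and Ltv1 rose to 1.35 and 1.27 times the control. The exosome, which trims precursor RNA, had 3 of 17 genes lower (Exosc6, Exosc7 and Dis3) and 1 higher (Zcchc7, 1.52 times the control), with a median of -0.02. Against a background of 18.2 percent lower and 24.4 percent higher, the list of other snoRNP proteins stands farthest on the lower side; no test of the difference between lists was made.

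The list of RNA polymerase I factors and of subunits that carry other symbols went both ways, with 7 of 18 expressed genes higher (38.9 percent, background 24.4 percent), 4 lower (22.2 percent, background 18.2 percent) and a median of 0.02; with median-ratio scaling 3 were higher. Cd3eap, the partner of the Polr1e subunit, was at 5.90 and 6.48 FPKM in the CD137 libraries, against 10.3 FPKM in the control (-0.66 ± 0.08 SE, adjusted p = 0.00439 in limma). Ubtf, the upstream binding factor of ribosomal DNA, was at 24.55 and 24.03 FPKM in the CD137 libraries, against 32.1 FPKM in the control (-0.39 ± 0.05 SE, adjusted p = 0.00458 in limma). Polr2f, a subunit common to all nuclear RNA polymerases, fell to 79.0 percent of the control. On the other side, Taf1b, a subunit of the promoter selectivity factor, rose to 1.27 times, the subunit gene Znrd1 to 1.22 times and the initiation factor gene Rrn3 to 1.14 times the control. Both genes of the initiation heterodimer, Polr1e and Cd3eap, were thus lower in both CD137 libraries, and Cd3eap passed the test while Polr1e did not. The deposited KEGG annotation of ribosome biogenesis gave 75 expressed genes outside the members, with 17 lower (22.7 percent), 13 higher (17.3 percent) and a median of 0.01. Some of these genes are also in the lists above. Outside both, 44 expressed genes remained, with 9 lower (20.5 percent), 11 higher (25 percent) and a median of 0.05. The annotation includes the nuclear export genes Nxf7 and Ran, so it is broader than the lists.

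**Figure D4:**
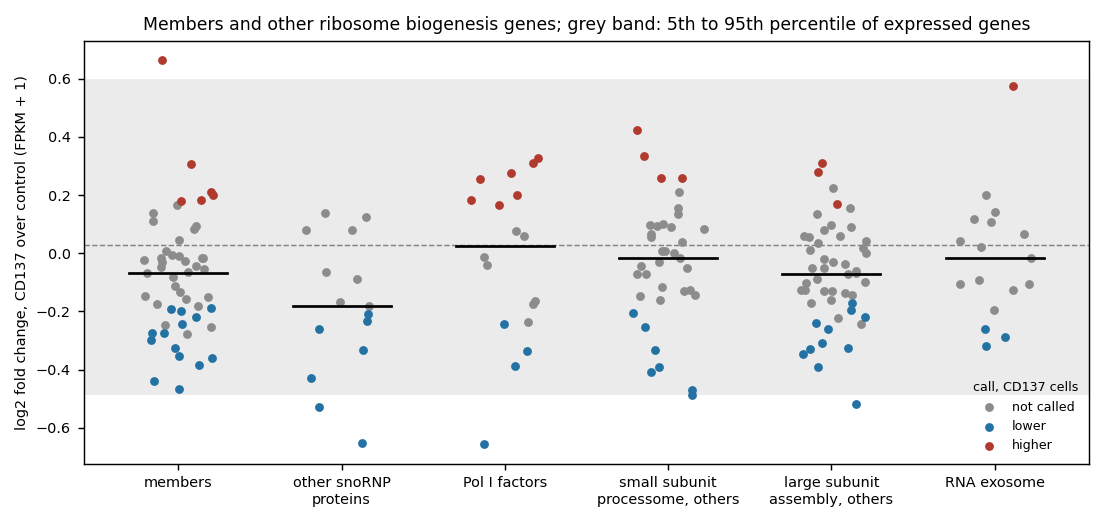
Log2 fold change, CD137 over control, of each expressed member and of each expressed gene of 5 other lists (blue, fell; red, rose; grey, did not pass). The dashed line is the median of all expressed genes, black bars are the medians of the lists, -0.07 for the members and -0.18 for the other snoRNP proteins, and the grey band holds the 5th to 95th percentiles of all expressed genes, from -0.48 to 0.59.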

How the data were processed

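RNA was extracted with TRIzol and libraries were made with oligo-dT beads, per the labels' protocols. The authors deposited FPKM values per gene and library, with log2 ratios, Poisson p-values and their adjusted values, per the file headers; the authors' adjusted values exceed 1 for some genes, so these deposited values are treated as a score; the tools Bowtie2, HISAT2 and RSEM and the build mm10 come from the submitters' processing notes, which give no roles or versions. How strand was treated is not given in the sources used here. One broken line was left out of the table of 21990 genes. FPKM is relative to the library total.

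From these values, limma 3.58.1 in R 4.3.3 was fitted on log2(FPKM + 1) with a mean-variance trend over 10720 genes at 1 FPKM or more in some library, with Benjamini-Hochberg adjustment. Whole reads were solved from the 3 p-values per gene for 12887 genes (80.5 percent); depths of CD137 replicates 2 and 3 were 0.983 and 0.988 of the control. Alternatives were no filter, a mean of at least 5 FPKM, another pseudocount, median-ratio scaling, limma-voom on solved reads and leaving out a library. The limma fit was also run on simulated data with the same spread in all libraries. That run cannot test the assumption that the control varies as little as the CD137 libraries. The solving of reads was run on simulated reads. Members, lists and the expression filter were chosen with earlier results of these data known. Named genes are the members the symbol rule spells out, all Polr1 members, up to 10 called members with the largest change in each direction, up to 4 genes per other list by p, Myc and Tnfrsf9, with the remaining members given in ranges; genes beyond these were named after their values were seen. Of the 52 members 18 have an exon overlapping another gene in GENCODE vM21, of the same assembly.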

Additional observations from a re-analysis of the deposited data

How the results depend on the processing

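Without the filter on low values, limma called 0 of all 16003 genes and 0 of every list, members included, while 5281 genes had an unadjusted p under 0.05 there. Counts of members stayed within 1.5 times otherwise: 5 to 7 higher and 14 to 20 lower with a mean of at least 5 FPKM, a pseudocount of 0.1, median-ratio scaling or limma-voom on solved reads (45 members); with scaling all 14 fallen members kept their call and 5 of 6 risen ones did. The median log2 fold change of the members was -0.10 with median-ratio scaling, and ranged from -0.098 to -0.067 when 1 CD137 library was left out. The count of exosome genes higher was 2 with a mean of at least 5 FPKM and 2 with limma-voom, and 3 genes of the RNA polymerase I list were higher with scaling. No called member reversed its direction under any alternative run. Leaving out the control was not possible, since it is the only one, and leaving out a CD137 library leaves 1 against 1 and no test. No paired analysis was possible because the groups share only replicate number 2. With 1 control library, a difference between cultures and an effect of Cd137 cannot be told apart.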
